A study of Mus musculus with 16 samples.

Results

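The genes described here are 37 genes of glucose transport, glycolysis and the pentose phosphate pathway, out of 19540 genes measured by RNA-seq in T cells sorted from the visceral adipose tissue (VAT) of mice. They were taken by symbol and all 37 were found. They cover glucose carriers (3 genes), hexokinases (3), the enzymes of glycolysis down to pyruvate (13), the enzymes that set fructose-2,6-bisphosphate (2), lactate dehydrogenases (2), lactate carriers (2), pyruvate dehydrogenase kinases and subunits (5), pentose phosphate enzymes (4) and the hypoxia pathway (3). The study compared regulatory T cells (Treg), the CD4 T cells that express Foxp3 and dampen immune responses, with conventional T cells (Tconv), from mice with or without a deletion of Hpgd in Treg. Hpgd encodes the dehydrogenase that inactivates prostaglandin E2.

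The libraries fell into 4 groups by title: 4 Treg KO, 3 Treg WT, 5 Tconv KO and 4 Tconv WT. In the KO mice a floxed Hpgd is removed by a Cre recombinase expressed from Foxp3 with a YFP reporter, so that Tconv KO are Tconv taken from mice whose Treg lack the gene. WT is what the titles call the controls. All 16 libraries carry the same label for the mouse line, floxed Hpgd with Foxp3-YFP-Cre, so the genotype rests on the titles, and no source used here says whether the WT mice carried the floxed allele or the Cre. The mice were C57BL/6JRcc and 12 weeks of age. There were 5 deleted and 4 WT animals per the series description. No label says which library came from which animal. Each genotype has fewer animals than libraries, so some libraries share an animal, and the fit treats all libraries as independent. The spread that p-values measure is thus that between libraries, which may in part be technical.

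Glucose enters T cells through carriers of the Slc2a family and is trapped by hexokinase. Phosphofructokinase commits it to glycolysis, which ends in pyruvate. Pyruvate is then either reduced to lactate, which leaves through carriers of the Slc16a family, or passed to the mitochondrion by pyruvate dehydrogenase, which pyruvate dehydrogenase kinases switch off. The pentose phosphate pathway branches off after hexokinase and yields NADPH and ribose. Effector T cells raise glycolysis on activation, while Treg are known for relying more on fatty acid oxidation, and several of these genes respond to the hypoxia factor HIF-1.

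Values are normalised read counts on which a gene with no reads stands at 1, and the value of 3 reads, below which a level cannot be told from absence, lay between 1.38 and 7.09. Libraries held 3.39 to 9.26 M reads, except Tconv KO 3 with 56.7 M, and 13366 to 16041 genes had reads. Hpgd stood at 3.41, 2.54, 2.42 and 1.00 in Treg KO, against 73.1 and 56.0 in Treg WT 1 and 2 and 4.31 (3 reads) in the library labelled Treg WT 3, which thus lay near the KO libraries. Hpgd was unread in 4 of 5 Tconv KO and in 4 of 4 Tconv WT libraries. Foxp3 ran from 279 to 546 in Treg KO and from 292 to 616 in Treg WT, against 1.00 to 4.99 in Tconv KO and 1.00 to 39.3 in Tconv WT. The summed T cell markers (Cd3e, Cd3d, Cd3g, Cd4 and Cd2) ran from 21680 to 34577 over all libraries. The library Tconv WT 1 also carried neutrophil markers (sum 14854, against 85.3 to 198 elsewhere) and macrophage markers (1059, against at most 222), and Tconv WT 3 carried red cell and platelet markers (160120, against at most 1515). Treg WT 2 stood apart from the other Treg libraries in Il1rl1, the IL-33 receptor of VAT Treg (1725, against 10742 to 14889), and had no reads of Il5, and it held the highest Slc16a3 and the lowest Egln3, Hk2 and Pdk1 of the Treg libraries. In bulk samples such as these, fewer cells of a type and less RNA per cell cannot be told apart.

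The share of reads taken by the pathway lay close together in the 4 groups. The 37 genes together took 0.677 ± 0.0552% of reads in Treg KO (n = 4), 0.633 ± 0.0431% in Treg WT (n = 3), 0.649 ± 0.0256% in Tconv KO (n = 5) and 0.673 ± 0.0245% in Tconv WT (n = 4; SD throughout). The ranges of all 4 groups overlapped. The 16 enzymes from hexokinase to pyruvate kinase took 0.434 ± 0.0409%, 0.386 ± 0.0288%, 0.416 ± 0.0177% and 0.429 ± 0.0203% in the same order of groups. For these 16 the range of Treg WT (0.353 to 0.405%) lay below that of Tconv WT (0.416 to 0.459%). Treg KO (0.391 to 0.490%) overlapped both Treg WT and Tconv KO (0.394 to 0.443%). The WT separation held for shares of reads only. Summed normalised values (each minus 1) of the 16 overlapped, at 25230.3 to 33788 in Treg WT and 30071 to 33255 in Tconv WT. For all 37 genes the mean sum was 50397 in Treg WT and 49537 in Tconv WT, the reverse of the order of shares. Levels between genes are compared per kilobase of transcript. On that scale Gapdh (mean over all libraries 4226 per kilobase), Aldoa (4170), Ldha (3643), Eno1 (2561) and Pkm (2260) were the 5 highest, and Eno2 (6.06), Slc2a6 (6.00) and Hk3 (2.42) the 3 lowest. The spread between libraries was wider at lower levels. The 13 members with a mean value of 1000 or more had an SD between libraries of a group of 0.18 to 0.47 on the log2 scale, the 17 with means of 100 to 1000 of 0.29 to 2.13, and the 7 under 100 of 1.57 to 2.63.

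**Figure D1:**
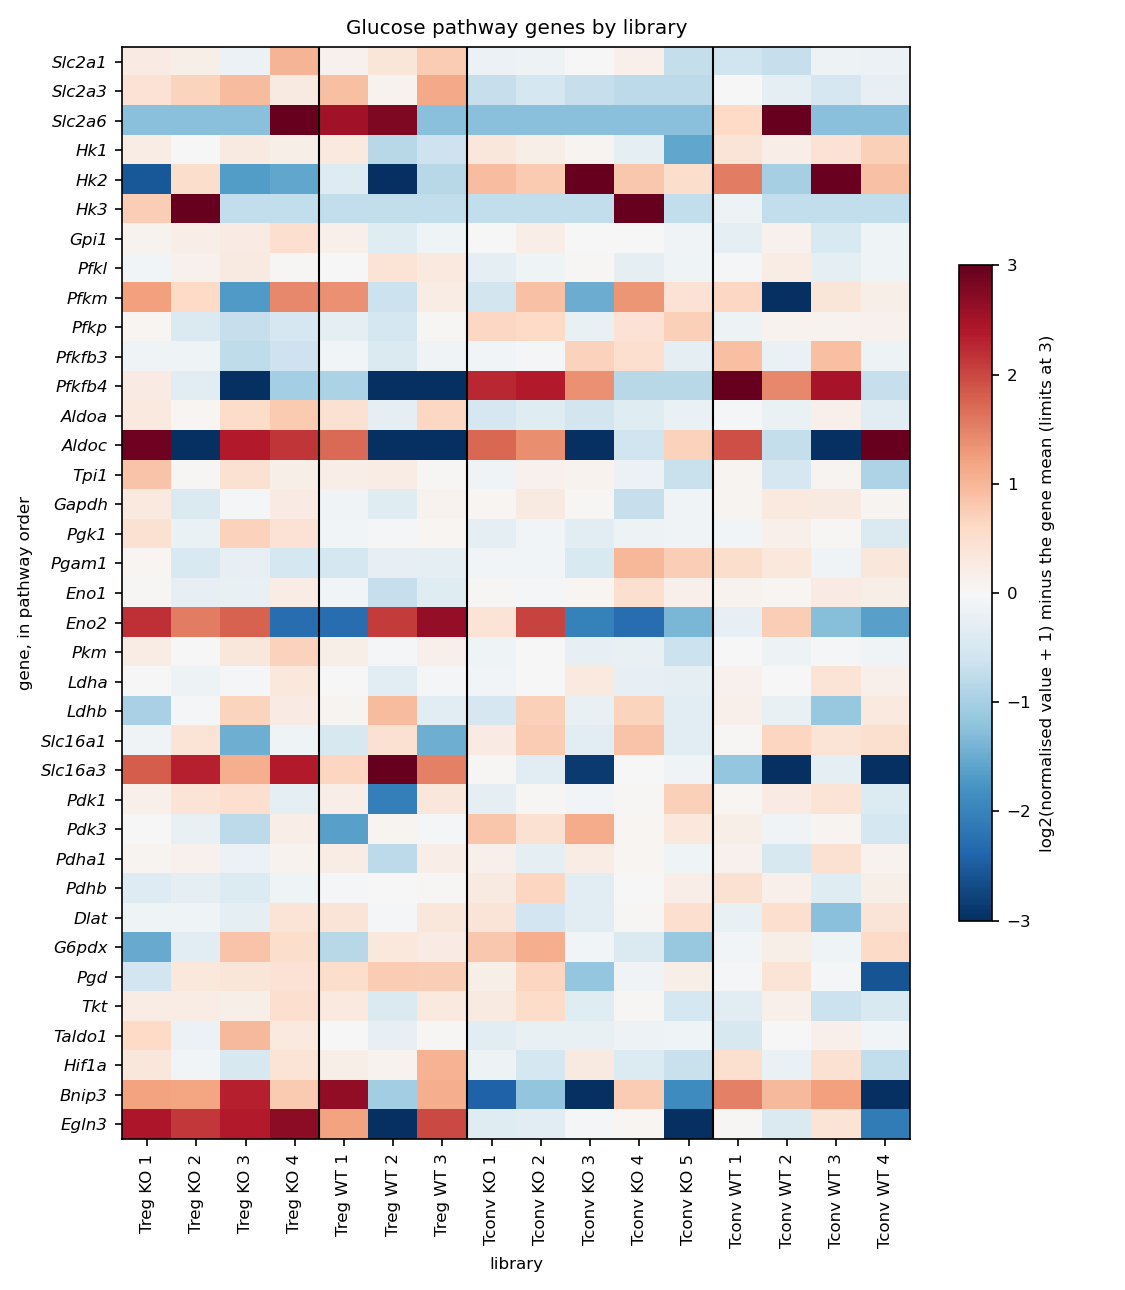
Log2(normalised value + 1) of each gene minus its mean over the 16 libraries (colour, limited at 3), with genes in pathway order down the page and libraries across it in the order Treg KO, Treg WT, Tconv KO and Tconv WT. The abundant enzymes vary little and the low genes vary from library to library, while Slc2a3, Slc16a3 and Egln3 are mostly above their means in Treg and Pfkfb4 and Hk2 mostly above theirs in Tconv.

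Several genes share sequence with copies, and the sources used here do not say how such reads were assigned. Of the 37 genes, 25 share some 31-base stretches with other annotated genes, and 5 share more than 50% of theirs: Gapdh (84.1%), Eno1 (77.2%), Bnip3 (74.8%), Pgk1 (68.3%) and Pkm (50.9%). Their levels are uncertain to that extent. Of the genes sharing over 5% of a member's stretches, 10 are listed in the table. Pitrm1, which overlaps Pfkp, stood at 112 to 585, and the highest value of the other 9 in any library was 83.7 (Map3k15, for Pdha1), with at most 56.0 for Eno1b, 33.5 for the highest of 5 sharing with Gapdh, 17.9 for G6pd2 and 9.82 for Aldoart1. Exons of 15 members overlap exons of other annotated genes, in 9 cases protein coding ones, and the library protocol does not mark strand.

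The main differences lay between Treg and Tconv, and they concerned single genes. Of the 36 members tested (Hk3 was too low), 4 passed in Treg KO against Tconv KO, or 11.1%, beside 6.81% of all 14319 genes tested. Slc2a3, Aldoa and Pkm were higher in Treg KO, as were 4.16% of all genes, and Pfkp was lower, as were 2.65%. In Treg WT against Tconv WT 3 of 36 passed, or 8.33%, beside 4.18% of all genes. Slc16a3 and Slc2a3 were higher in Treg WT, as were 2.20% of all genes, and Pfkfb4 was lower, as were 1.98%. All adjusted p-values are from limma with Benjamini-Hochberg adjustment over all genes tested, 2-sided, with a threshold of 0.05. The comparisons within KO and within WT share no libraries, but both take their spread from a single fit of all groups. Slc2a3 was the single member called in both, and its WT call was lost when only the WT groups were fitted (adjusted p = 0.0979). The median log2 difference of the members was 0.25 in KO, where the median of all genes was 0.04, and 0.04 in WT, where that of all genes was 0.00. These medians moved with the scaling and with voom, a test on reads recovered from the same values. Voom was run without the deposited size factors and scaled each library by its read total, so test and scaling changed together. In KO the members' median was 0.17 with quantile scaling (all genes -0.04) and 0.06 by voom (all genes -0.11), and in WT it was -0.06 with quantile scaling (all genes -0.01) and -0.04 by voom (all genes -0.11). Differences were positive in 24 of 36 members in KO (66.7%, beside 52.3% of all genes; 22 with quantile scaling and 19 by voom) and in 19 of 36 in WT (52.8%, beside 49.7%; 16 and 17). The groups did not overlap for 5 members in KO, all with Treg above Tconv (13.9%, beside 10.7% of all genes in either direction), and for 7 in WT, 4 with Treg above and 3 with Treg below (19.4%, beside 12.0%).

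**Figure D2:**
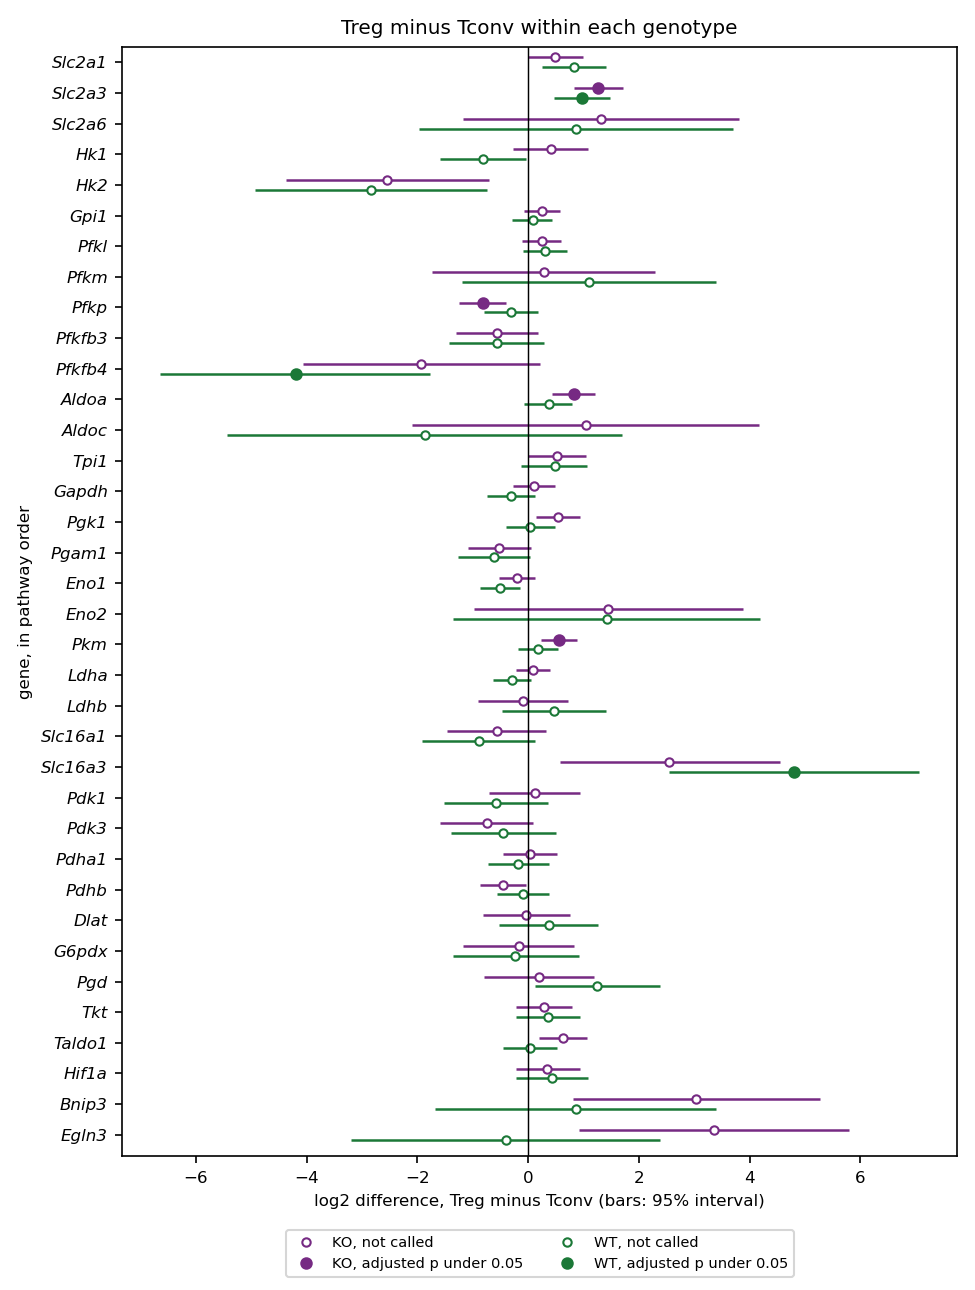
Log2 difference of Treg minus Tconv for the 36 members tested, within KO (upper of each pair) and within WT (lower), with 95% intervals from limma and filled points where the adjusted p was under 0.05. Slc2a3 lies right of 0 in both comparisons with narrow intervals (1.27 in KO and 0.97 in WT), whereas Slc16a3, Pfkfb4, Hk2, Bnip3 and Egln3 have large differences with wide intervals.

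Among the glucose carriers, Slc2a3 was higher in Treg than in Tconv in both genotypes. This gene, on chr6:122727809-122801640 (minus strand, GRCm38), encodes GLUT3, a carrier with high affinity for glucose. Its values were 1137, 1341, 1627 and 1014 in Treg KO and 1588, 916 and 1871 in Treg WT, the last being the library labelled Treg WT 3. In Tconv KO they were 526, 590.1, 523, 489 and 493, and in Tconv WT 844, 707, 599 and 717. Every Treg library stood above every Tconv library of the same genotype. In KO the difference was 1.27 ± 0.21 on the log2 scale (SE, 2.40-fold, adjusted p = 0.000707), and it passed under all 19 alternative settings, with adjusted p up to 0.00507. In WT it was 0.97 ± 0.24 (1.96-fold, adjusted p = 0.0257). The WT call was lost without Treg WT 1 (adjusted p = 0.0946), without the library labelled Treg WT 3 (0.161), and without Tconv WT 2 (0.0545), 3 (0.0634) or 4 (0.0536). It was also lost with only the groups compared (0.0979), by voom (0.88, 0.0652), and, at 0.97, with 3 libraries of high Il5 (Tconv KO 3, Tconv WT 1 and Tconv WT 3, described with Hk2) left out together (0.0874). In all it was lost under 9 of 17 alternative settings, among them the replicate number as a block (0.0630).

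Slc2a1, which encodes GLUT1, the carrier that activated T cells raise, averaged 1399 ± 536 in Treg KO, 1455 ± 334 in Treg WT, 965 ± 199.6 in Tconv KO and 818 ± 154 in Tconv WT. It did not pass in either comparison (KO 0.49, 95% interval -0.01 to 0.99, adjusted p = 0.280, and WT 0.83, 0.25 to 1.40, adjusted p = 0.104), although the 3 Treg WT libraries (1164 to 1819) stood above the 4 Tconv WT libraries (659 to 956). Per kilobase, Slc2a3 made up 43.9 ± 13.3% of the 3 carriers in Treg KO and 44.2 ± 8.91% in Treg WT, against 31.4 ± 4.93% in Tconv KO and 41.2 ± 6.47% in Tconv WT, with ranges that overlap. Slc2a6, a carrier described in lysosomal membranes, was read in 1 of 4 Treg KO, 2 of 3 Treg WT, 0 of 5 Tconv KO and 2 of 4 Tconv WT libraries, at no more than 74.9.

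Hexokinase messages came mainly from Hk1, the constitutive isozyme. Hk1 stood at 551, 465, 565 and 533 in Treg KO, 582, 264 and 305 in Treg WT, 594, 535, 501, 389.5 and 159 in Tconv KO, and 620.3, 543, 634 and 769.9 in Tconv WT. Its share of the hexokinases per kilobase was 93.1 ± 9.53% in Treg KO and 95.9 ± 3.30% in Treg WT, against 75.8 ± 12.8% in Tconv KO and 84.2 ± 13.4% in Tconv WT. Hk2, the inducible isozyme, held 3.92 ± 4.23% in Treg KO and 4.13 ± 3.30% in Treg WT, against 21.3 ± 13.3% in Tconv KO and 15.8 ± 13.4% in Tconv WT. Hk3, the myeloid isozyme, held the rest, up to 10.9% in Treg KO 2 and 14.6% in Tconv KO 4, where it exceeded Hk2. These shares depend on the length used. With the length of all exons Hk1 averaged 90.4% in Treg KO, 94.0% in Treg WT, 68.2% in Tconv KO and 78.8% in Tconv WT. On that scale Hk2 (52.1%) exceeded Hk1 (47.9%) in a Tconv KO library. Hk2 values, shown because the gene had the largest negative difference in KO, were 9.44, 87.0, 18.0 and 19.5 in Treg KO and 45.7, 2.74 and 33.0 in Treg WT. In Tconv KO they were 114, 103, 520.4, 106 and 86.3, and in Tconv WT 174, 29.4, 474 and 110.2. Treg KO 2 lay just above the lowest Tconv KO library and Tconv WT 2 fell within the Treg WT range. The difference was -2.54 (95% interval -4.38 to -0.71, adjusted p = 0.0976) in KO and -2.84 (-4.93 to -0.75, adjusted p = 0.131) in WT, neither of which passed in the fit of all groups. The KO difference passed without Treg KO 2 (-3.16), with only the groups compared (adjusted p = 0.0333) and with array weights (0.0376).

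The highest Hk2 values, in Tconv KO 3, Tconv WT 3 and Tconv WT 1, came from the Tconv libraries with the highest Il5 (940.4, 426 and 599.7, against at most 52.4 in the other Tconv libraries) and Pparg (398, 485 and 316, against at most 36.3). Tconv KO 3 is the deepest library. With these 3 libraries left out together, the Hk2 difference was -2.07 in KO (adjusted p = 0.180) and -1.68 in WT (0.505), and without Treg WT 2 it was -1.70 in WT (0.445). Hk3 was read in 2 of 4 Treg KO, 0 of 3 Treg WT, 1 of 5 Tconv KO and 1 of 4 Tconv WT libraries. In Tconv WT 1, the library with neutrophil markers, it stood at 2.03.

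At the commitment step the platelet-type phosphofructokinase Pfkp (chr13:6579768-6648777, minus strand) was lower in Treg KO than in Tconv KO. Its values were 1672, 1199, 1004 and 1134 in Treg KO and 1304, 1117 and 1647 in Treg WT. They were 2494, 2452, 1374, 2179.7 and 2659 in Tconv KO and 1443, 1744, 1746 and 1749 in Tconv WT. The groups overlapped in both genotypes, in KO through Treg KO 1 and Tconv KO 3. The log2 difference in KO was -0.82 ± 0.20 (SE, adjusted p = 0.0164). The call was lost without Treg KO 3 (adjusted p = 0.0726) or Treg KO 4 (0.0546) and with the replicate number as a block (0.0616). In WT it was -0.31 (95% interval -0.80 to 0.17, adjusted p = 0.572). Of the 31-base stretches of Pfkp, 17.4% are shared with Pitrm1 on the overlapping locus, which stood at 201 to 281 in Treg KO and 112 to 283 in Tconv KO and did not pass (log2 difference 0.45, adjusted p = 0.594).

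The liver-type isozyme Pfkl averaged 1073 ± 114 in Treg KO, 1196 ± 166 in Treg WT, 902 ± 85.6 in Tconv KO and 967 ± 151 in Tconv WT. Per kilobase, Pfkp and Pfkl were near equal in Treg, with 48.9 ± 6.88% and 47.5 ± 8.25% of the 3 isozymes in Treg KO and 48.8 ± 5.74% and 48.3 ± 7.04% in Treg WT. In Tconv, Pfkp held 66.7 ± 7.25% in KO and 59.7 ± 4.00% in WT. The Pfkp share ran from 42.3 to 58.6% in Treg KO and 54.3 to 72.6% in Tconv KO, which overlap, and from 42.4 to 53.4% in Treg WT and 55.6 to 64.2% in Tconv WT, which do not. The muscle isozyme Pfkm held 3.61 ± 2.33% or less on average in each group.

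Pfkfb3 and Pfkfb4 encode enzymes that make and break down fructose-2,6-bisphosphate, the activator of phosphofructokinase. Pfkfb4 (chr9:108991778-109032228, plus strand) stood at 20.3, 13.3, 1.00 and 7.81 in Treg KO and at 8.30, 1.00 and 1.00 in Treg WT. In Tconv KO it stood at 84.9, 92.2, 44.9, 8.98 and 9.0, and in Tconv WT at 267, 47.7, 98.6 and 10.0. All Treg WT libraries lay below all Tconv WT libraries, 2 of them with no reads, while the KO groups overlapped. The fitted log2 difference was -4.20 ± 1.17 in WT (SE, adjusted p = 0.0469), and -1.93 (95% interval -4.07 to 0.21, adjusted p = 0.333) in KO. The WT call held under 6 of 17 alternative settings. It was lost without Treg WT 2 (adjusted p = 0.126), the library labelled Treg WT 3 (0.164), Tconv WT 1 (0.127), Tconv WT 2 (0.0781) or Tconv WT 3 (0.0957). The highest value, 267, is in Tconv WT 1, the library with neutrophil markers, and without it and the 2 other libraries with high Il5 the difference was -2.79 (adjusted p = 0.315). Pfkfb3 averaged 122 ± 27.6 in Treg KO, 138 ± 17.8 in Treg WT, 183 ± 54.3 in Tconv KO and 219 ± 89.7 in Tconv WT, and passed in neither comparison.

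**Figure D3:**
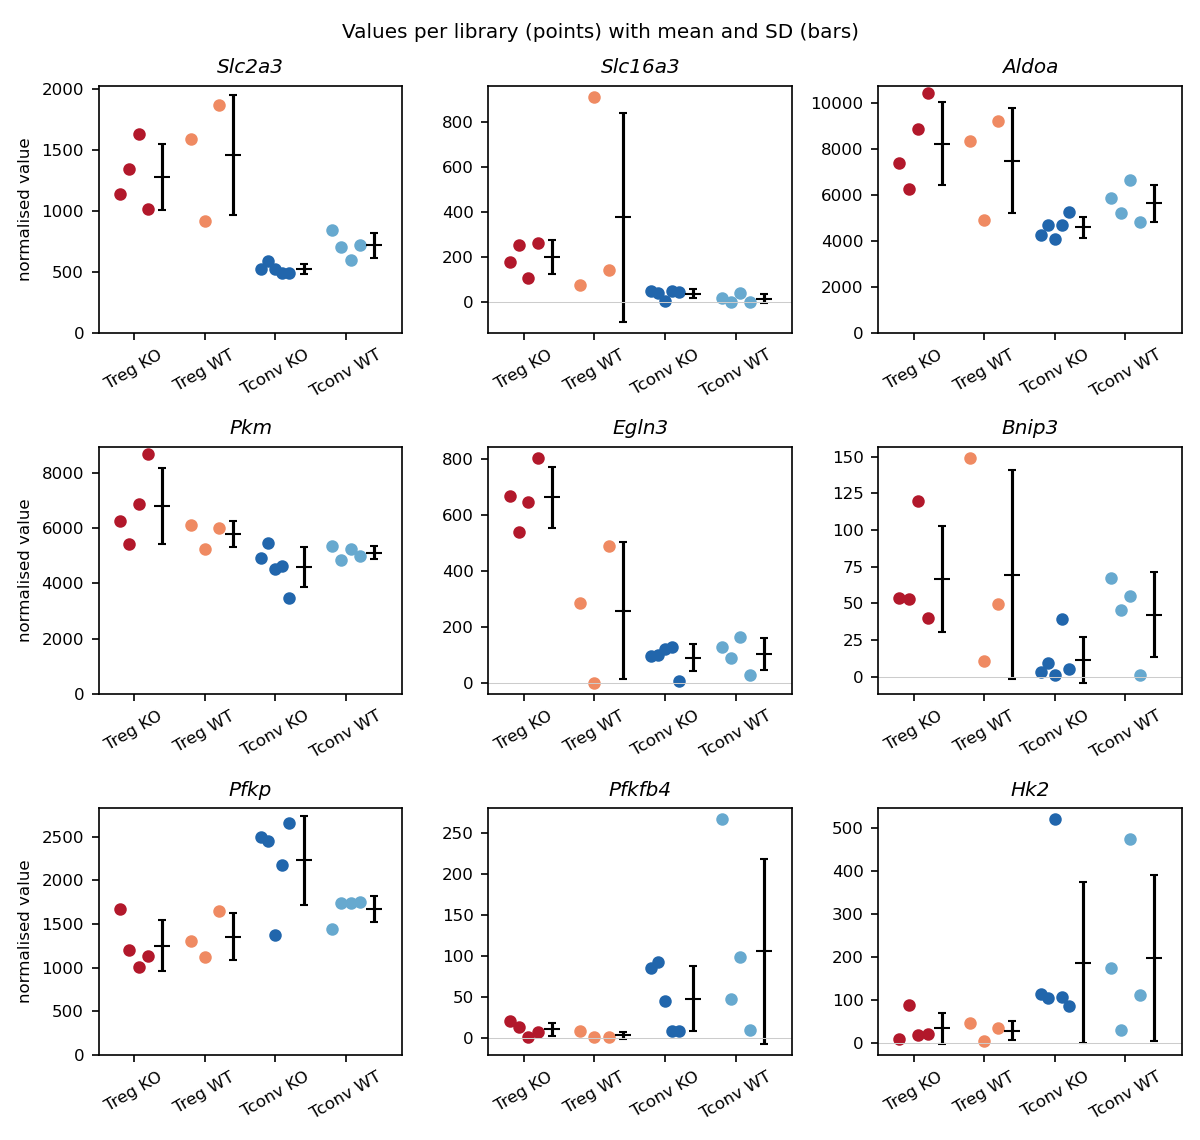
Normalised value (linear axis) of 9 genes in each library (points), with the mean and SD of each group to the right of its points, over 4 Treg KO, 3 Treg WT, 5 Tconv KO and 4 Tconv WT libraries. Slc2a3 separates Treg from Tconv in both genotypes, Aldoa does so in KO, and Pfkfb4 and Hk2 have their largest values and widest spread in Tconv.

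In the middle of the pathway Aldoa, the main aldolase of T cells, was higher in Treg KO than in Tconv KO. The gene lies on chr7:126795234-126800751 (minus strand). It stood at 7371, 6243, 8872 and 10412 in Treg KO and 8319, 4899 and 9216 in Treg WT, against 4237, 4684, 4092, 4674 and 5269 in Tconv KO and 5845, 5223, 6663 and 4810.2 in Tconv WT. The KO groups did not overlap, whereas Treg WT 2 fell within the Tconv WT range. The log2 difference was 0.82 ± 0.18 in KO (SE, 1.77-fold, adjusted p = 0.00779) and passed under all 19 alternative settings, with adjusted p up to 0.0417. In WT it was 0.37 (95% interval -0.07 to 0.80, adjusted p = 0.412). The difference between these 2 values, 0.45 (-0.13 to 1.03), did not pass (adjusted p = 0.936). Aldoa held at least 98.3% of the aldolase messages per kilobase in every library, the rest being Aldoc. Of its 31-base stretches, 35.0% are shared with other genes, the closest being Aldoart1 (13.9%).

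Pkm, the pyruvate kinase of the last step, was also higher in Treg KO. Its values were 6240.4, 5424, 6871 and 8668 in Treg KO and 6115, 5244 and 6013 in Treg WT. They were 4903, 5449.8, 4512, 4632 and 3460.4 in Tconv KO and 5333, 4829.6, 5255 and 4999 in Tconv WT. The groups overlapped slightly in each genotype. The log2 difference was 0.56 ± 0.15 in KO (SE, 1.48-fold, adjusted p = 0.0275) and 0.18 in WT (95% interval -0.18 to 0.54, adjusted p = 0.694). The KO call was lost without Treg KO 3 (adjusted p = 0.0795), Treg KO 4 (0.126) or Tconv KO 5 (0.0846), and with quantile scaling, where the difference was 0.25 (adjusted p = 0.335). It was also lost with only the groups compared (0.0633), by voom (0.39, 0.0562) and with the 3 libraries of high Il5 left out together (0.0652), in all under 8 of 19 alternative settings.

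The other enzymes between glucose 6-phosphate and pyruvate did not pass. Gpi1, the isomerase, stood at 3122, 3287, 3414 and 4075 in Treg KO, 3221, 2225 and 2629 in Treg WT, 2911, 3289, 2863, 2866 and 2674 in Tconv KO, and 2337, 3147, 2086 and 2643 in Tconv WT. Tpi1, which interconverts the triose phosphates, stood at 1099, 623, 842 and 689 in Treg KO, 701, 714 and 627 in Treg WT, 569, 662, 658, 535 and 381 in Tconv KO, and 644, 429, 642 and 319.6 in Tconv WT. Gapdh, which makes the NADH of glycolysis, stood at 7251, 4355, 5744 and 6985 in Treg KO, 5484, 4618 and 6325 in Treg WT, 6122, 7070.4, 6036, 3671 and 5491 in Tconv KO, and 6296, 7196, 7085 and 6294 in Tconv WT. All 3 genes overlapped between the groups of each comparison.

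Pgk1, which makes the first ATP of the pathway, stood at 1621, 1038, 1919.7 and 1609 in Treg KO, 1113, 1134 and 1235 in Treg WT, 962, 1119, 951, 1072 and 1096 in Tconv KO, and 1121, 1318, 1225 and 882 in Tconv WT. Its difference in KO was 0.54 (95% interval 0.15 to 0.93, adjusted p = 0.0939), with Treg KO 2 inside the Tconv KO range, and it passed without that library (0.72). Pgam1, the mutase, stood at 548, 377, 439 and 361 in Treg KO, 363, 439 and 433 in Treg WT, 494, 496, 383, 1040.5 and 869 in Tconv KO, and 759, 646, 487 and 665 in Tconv WT. Eno1, the main enolase, stood at 5209.8, 4332, 4412 and 5957 in Treg KO, 4846, 3187 and 3995 in Treg WT, 5272, 5007, 5348, 7216 and 5709.8 in Tconv KO, and 5464, 5294, 6104 and 5725 in Tconv WT. The Treg WT libraries lay below all Tconv WT libraries for both Pgam1 (log2 difference -0.62, 95% interval -1.27 to 0.03, adjusted p = 0.336) and Eno1 (-0.51, -0.87 to -0.15, adjusted p = 0.112). Eno1 depended on scaling: with quantile scaling it passed as lower in Treg in both KO (-0.50, adjusted p = 0.0171) and WT (-0.68, 0.00854). Aldoa and Eno1 thus had fitted differences of opposite sign, which they kept with quantile scaling and by voom.

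Among the lactate carriers, Slc16a3 was higher in Treg WT than in Tconv WT. The gene lies on chr11:120948480-120960868 (plus strand) and encodes MCT4, the carrier that releases lactate from glycolytic cells. Its values were 178, 256, 107 and 264 in Treg KO and 78.6, 909 and 144 in Treg WT. They were 50.9, 40.0, 5.94, 50.5 and 46.3 in Tconv KO and 21.7, 1.00, 41.3 and 1.00 in Tconv WT, where 2 libraries had no reads. Treg stood above Tconv in every library of each genotype. The fitted log2 difference was 4.80 ± 1.08 in WT (SE, adjusted p = 0.0136) and 2.55 in KO (95% interval 0.57 to 4.54, adjusted p = 0.130). Most of the Treg WT mean lies in Treg WT 2, and without this library, which is also low in Il1rl1, the WT difference was 3.77 (adjusted p = 0.0749). The WT call was also lost with only the groups compared (0.0924) and by voom (0.155), under both of which the KO difference passed (0.0195 and 0.0261). The test of the difference between the genotypes gave -2.25 (95% interval -5.25 to 0.76, adjusted p = 0.943).

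Slc16a1, which encodes MCT1, the carrier for both uptake and release, averaged 176 ± 79.0 in Treg KO, 163 ± 104 in Treg WT, 252 ± 95.9 in Tconv KO and 265 ± 45.3 in Tconv WT and did not pass. Per kilobase, Slc16a3 made up 54.8 ± 6.06% of both carriers in Treg KO (49.4 to 60.5%) and 60.2 ± 21.5% in Treg WT (36.0 to 77.1%). It made up 13.2 ± 7.37% in Tconv KO (3.08 to 22.5%) and 5.73 ± 6.83% in Tconv WT (0 to 13.5%). The shares did not overlap between Treg and Tconv in either genotype. Ldha, the dehydrogenase that makes lactate, stood at 6297, 5767, 6086 and 7890.1 in Treg KO, 6332, 5041 and 6183 in Treg WT, 6044, 6294, 7818, 5362 and 5215 in Tconv KO, and 6919, 6267, 8401 and 7029 in Tconv WT. It did not pass (KO 0.09, 95% interval -0.22 to 0.40, and WT -0.29, -0.64 to 0.06), and it made up 83.9 to 97.4% of both lactate dehydrogenases in every library.

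**Figure D4:**
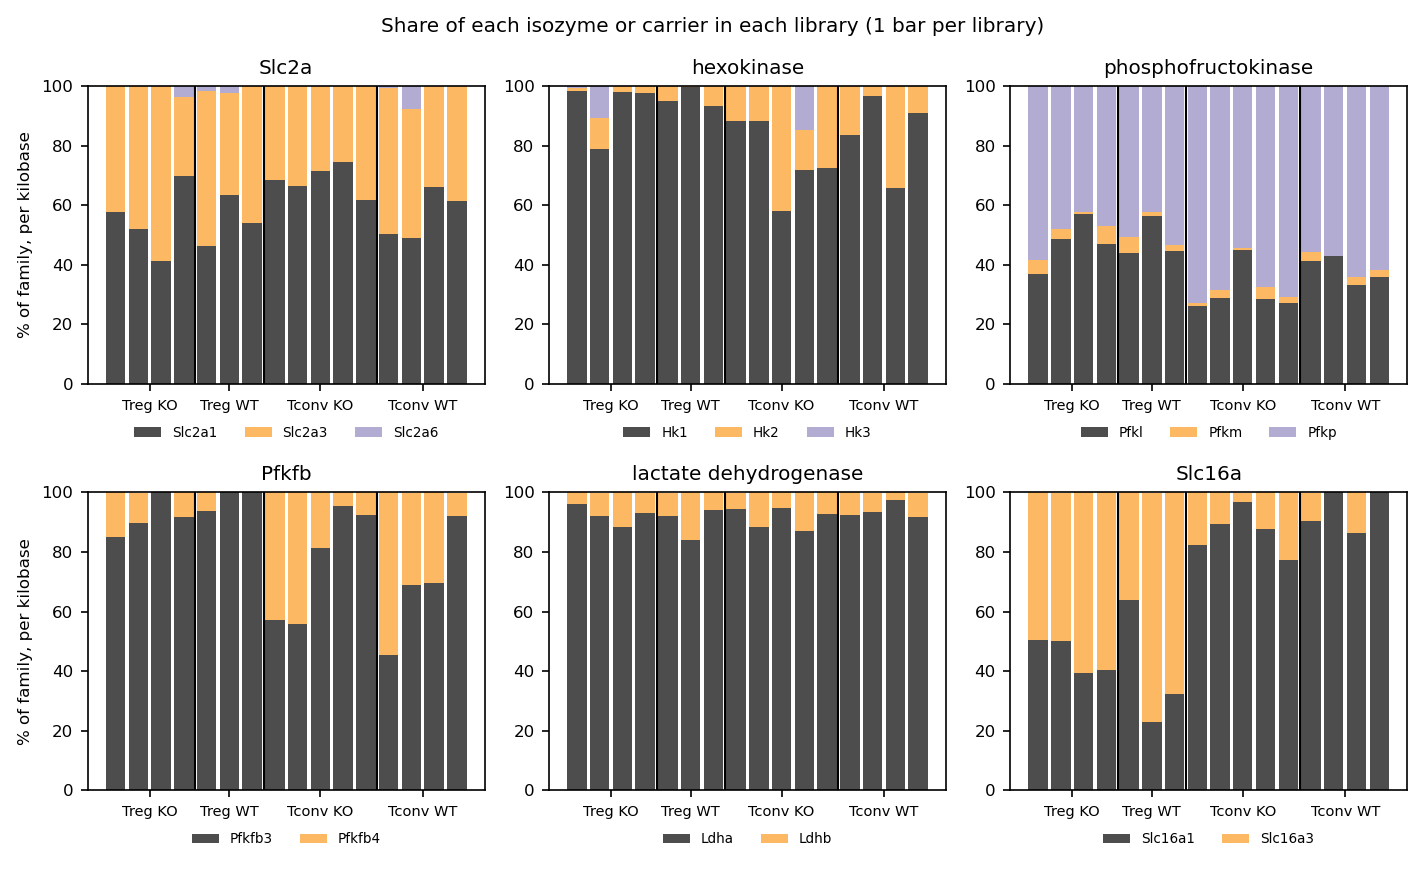
Share of each isozyme or carrier within its family (stacked to 100%, from values per kilobase of the principal transcript), with 1 bar per library and groups in the order Treg KO, Treg WT, Tconv KO and Tconv WT. Slc16a3 holds 36.0 to 77.1% of the lactate carriers in Treg and at most 22.5% in Tconv, and Hk2 and Pfkfb4 hold larger shares in several Tconv libraries.

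The mitochondrial branch and the pentose phosphate pathway had no member that passed in the fit reported. Pdk1, a kinase that switches off pyruvate dehydrogenase and answers to HIF-1, stood at 404, 479, 512 and 303 in Treg KO, 419, 86.5 and 461 in Treg WT, 294, 373, 344, 370.4 and 594 in Tconv KO, and 379, 427, 484 and 271 in Tconv WT. Pdhb, a subunit of the first enzyme of the complex, stood at 998, 1084, 982 and 1198 in Treg KO, 1281, 1318 and 1347 in Treg WT, 1573, 2055, 1029.9, 1312 and 1499.7 in Tconv KO, and 1799, 1442, 1013 and 1467 in Tconv WT. The log2 difference of Pdhb was -0.45 in KO (95% interval -0.87 to -0.04, adjusted p = 0.214) and -0.09 in WT (-0.57 to 0.38). The kinase Pdk3 and the subunits Pdha1 and Dlat had log2 differences between Treg and Tconv of -0.75 to 0.37 over both genotypes. The 3 subunits together took 0.0224 to 0.0292% of reads in Treg KO and 0.0296 to 0.0394% in Tconv KO. Their summed normalised values overlapped there, at 1849 to 2316 and 2127 to 2841, as did both measures in WT.

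In the pentose phosphate pathway, Taldo1, the transaldolase, stood at 1804, 1047, 2336 and 1443 in Treg KO, 1175, 999 and 1225 in Treg WT, 941, 1017, 1018, 1064 and 1091 in Tconv KO, and 846, 1180.2, 1312 and 1129 in Tconv WT. Its difference in KO was 0.63 (95% interval 0.20 to 1.06, adjusted p = 0.0736), and Treg KO 2 lay inside the Tconv KO range. The difference passed without that library (0.83, adjusted p = 0.0119) and with array weights (0.64, 0.0337). Pgd, the dehydrogenase of the NADPH-yielding branch, averaged 419 ± 115 in Treg KO, 591 ± 53.9 in Treg WT, 382 ± 149 in Tconv KO and 315 ± 181 in Tconv WT. The Treg WT libraries (529.5 to 629) lay above all Tconv WT libraries (60.7 to 490.2) with a log2 difference of 1.25 (0.12 to 2.38, adjusted p = 0.247). G6pdx, the entry enzyme, averaged 320.3 ± 191 in Treg KO, 292 ± 112 in Treg WT, 353 ± 208 in Tconv KO and 328 ± 76.6 in Tconv WT. Tkt, the transketolase, averaged 1107 ± 122, 957 ± 254, 934 ± 284 and 743 ± 188 in the same order of groups.

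The hypoxia genes included the member with the largest Treg to Tconv difference in KO, though it did not pass. Hif1a, the oxygen-regulated subunit of HIF-1, stood at 3288, 2450.0, 1860.2 and 3452 in Treg KO, 2919, 2799 and 5291 in Treg WT, 2326, 1805, 3099, 1934 and 1615 in Tconv KO, and 3622, 2254, 3528 and 1539 in Tconv WT, and all groups overlapped. Egln3 (chr12:54178981-54203860, minus strand) encodes PHD3, a prolyl hydroxylase that marks HIF for degradation and is itself induced by HIF. It is shown for that difference. Egln3 stood at 665, 537, 644 and 801 in Treg KO, and at 285, 1.00 and 487 in Treg WT, where Treg WT 2 had no reads. In Tconv KO it stood at 95.9, 98.4, 120.4, 128 and 6.33, and in Tconv WT at 127, 90.3, 163 and 28.0. Every Treg KO library lay above every other library. The log2 difference from Tconv KO was 3.35 (95% interval 0.91 to 5.79, adjusted p = 0.102), which passed with only the groups compared (0.00605), with array weights (0.0249) and by voom (0.0303). In WT it was -0.40 (-3.19 to 2.38), with 2 of 3 Treg WT libraries above all Tconv WT libraries and the third, Treg WT 2, unread. Without Treg WT 2 it was 2.11 (adjusted p = 0.236).

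Bnip3, a mitophagy receptor induced by HIF-1, stood at 54.0, 53.2, 119.9 and 39.9 in Treg KO, 149, 10.6 and 49.5 in Treg WT, 3.43, 9.57, 1.00, 39.3 and 5.44 in Tconv KO, and 67.2, 45.7, 55.3 and 1.00 in Tconv WT. All Treg KO libraries lay above all Tconv KO libraries, the closest pair being 39.9 and 39.3. The difference was 3.04 (95% interval 0.81 to 5.27, adjusted p = 0.104, and 0.0365 with only the groups compared) in KO and 0.86 (-1.68 to 3.40, adjusted p = 0.804) in WT.

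The promoters of 5 genes, chosen after their values were seen, 3 with positive and 2 with negative Treg to Tconv differences in KO, are shown because all 5 are known targets of HIF-1, whose binding core is ACGTG or GCGTG. Each is the 250 bases before the RefSeq start of the gene on GRCm38.p6, read 5′ to 3′ on the strand of the gene, with the cores in capitals on either strand.
Slc16a3, chr11:120948817-120949066, plus strand: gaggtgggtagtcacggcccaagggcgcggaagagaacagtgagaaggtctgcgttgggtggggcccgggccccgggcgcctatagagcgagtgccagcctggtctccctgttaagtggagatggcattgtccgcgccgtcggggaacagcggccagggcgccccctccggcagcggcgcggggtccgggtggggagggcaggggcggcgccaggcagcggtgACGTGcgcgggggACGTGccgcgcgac
Egln3, chr12:54203875-54204124, minus strand: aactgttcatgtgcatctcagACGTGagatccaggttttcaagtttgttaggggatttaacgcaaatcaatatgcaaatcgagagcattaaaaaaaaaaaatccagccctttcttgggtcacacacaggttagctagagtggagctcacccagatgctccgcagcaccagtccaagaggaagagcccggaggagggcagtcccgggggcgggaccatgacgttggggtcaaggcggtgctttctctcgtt
Bnip3, chr7:138909507-138909756, minus strand: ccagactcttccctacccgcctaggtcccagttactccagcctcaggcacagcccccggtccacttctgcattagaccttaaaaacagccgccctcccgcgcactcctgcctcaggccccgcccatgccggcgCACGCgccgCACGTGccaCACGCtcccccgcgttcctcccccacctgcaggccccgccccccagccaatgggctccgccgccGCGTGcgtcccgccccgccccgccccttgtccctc
Hk2, chr6:82774455-82774704, minus strand: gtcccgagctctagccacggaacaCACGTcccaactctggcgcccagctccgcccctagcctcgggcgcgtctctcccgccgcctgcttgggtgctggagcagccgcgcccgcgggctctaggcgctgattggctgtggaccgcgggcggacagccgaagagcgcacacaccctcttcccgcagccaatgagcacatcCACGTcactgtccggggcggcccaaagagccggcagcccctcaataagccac
Pfkfb4, chr9:108991652-108991901, plus strand: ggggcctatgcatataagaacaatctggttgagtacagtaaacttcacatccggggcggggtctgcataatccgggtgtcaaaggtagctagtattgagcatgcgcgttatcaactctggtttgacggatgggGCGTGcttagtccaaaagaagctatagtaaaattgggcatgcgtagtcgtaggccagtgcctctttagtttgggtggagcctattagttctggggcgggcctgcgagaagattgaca
All 5 hold cores. Slc16a3, Egln3 and Hk2 hold ACGTG or its reverse complement CACGT, Pfkfb4 holds GCGTG, and Bnip3 holds both cores, with GCGTG also as CACGC and with a palindrome CACGTG that overlaps ACGTG. RefSeq windows were found for 36 of the 37 members (50 windows). ACGTG or GCGTG was present in 80% of the members' windows and in 38.6% of all 32851 windows of that length, and the median GC content was 60.8% in the members' windows and 52.4% in all. A match of letters in a window is a description and not a binding site.

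No member was called between KO and WT in either cell type. Hpgd itself did not pass the filter on level, so the deleted gene was not tested. It stood at 73.1 and 56.0 in Treg WT 1 and Treg WT 2, and at no more than 6.20 in any other library. The library labelled Treg WT 3, at 4.31, lay near the KO libraries and is part of the WT group in the intervals below. The counts and intervals thus cannot show that the deletion left the members unchanged. In Treg KO against Treg WT 0 of 36 members passed, beside 3 of 14319 genes (0.0210%), and 3 members had an unadjusted p under 0.05 (8.33%, beside 6.22% of all genes), Egln3, Gpi1 and Taldo1. Differences were positive in 22 of 36 members (61.1%, beside 55.7%), with a median of 0.15 on the log2 scale beside 0.08 for all genes. Abundant members were bounded best: the 95% interval of the KO minus WT difference was -0.27 to 0.60 for Aldoa, -0.30 to 0.57 for Gapdh, -0.15 to 0.57 for Pkm and -0.20 to 0.50 for Ldha. The groups did not overlap for 3 of 36 members (8.33%), beside 6.01% of all genes tested. These were Egln3, with Treg KO above Treg WT (3.33, 95% interval 0.54 to 6.11, unadjusted p = 0.0216, adjusted p = 0.741), and Pdhb (-0.31, -0.78 to 0.17) and Pgd (-0.54, -1.67 to 0.59), both with Treg KO below. Without the unread Treg WT 2, the Egln3 difference was 0.81 (adjusted p = 0.959). The count of members called was 0 also without the library labelled Treg WT 3.

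In Tconv KO against Tconv WT 0 of 36 members passed, as did 0 of 14319 genes (0%), and 1 member, or 2.78% beside 5.45% of all genes, had an unadjusted p under 0.05. This was Slc16a3 (2.04, 95% interval 0.06 to 4.03, adjusted p = 0.899). The groups did not overlap for 1 member (2.78%, beside 1.67% of all genes), Slc2a3, at 489 to 590.1 in Tconv KO and 599 to 844 in Tconv WT (-0.44, -0.89 to 0.00, adjusted p = 0.900). Differences were positive in 15 of 36 members (41.7%, beside 51.7%) with a median of -0.07, beside 0.02 for all genes. The difference between the deletion effects in Treg and Tconv passed for 0 of 36 members, as for 0 of 14319 genes (0%), with adjusted p of 0.928 or more. It was positive in 24 of 36 members (66.7%, beside 53.3% of all genes). An unadjusted limma p under 0.05 was reached by 2 members (5.56%, beside 5.22%), Hk1 (1.22, 95% interval 0.18 to 2.26) and Egln3 (3.75, 0.05 to 7.46). Under voom, 0 members passed in all 3 of these comparisons.

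**Figure D5:**
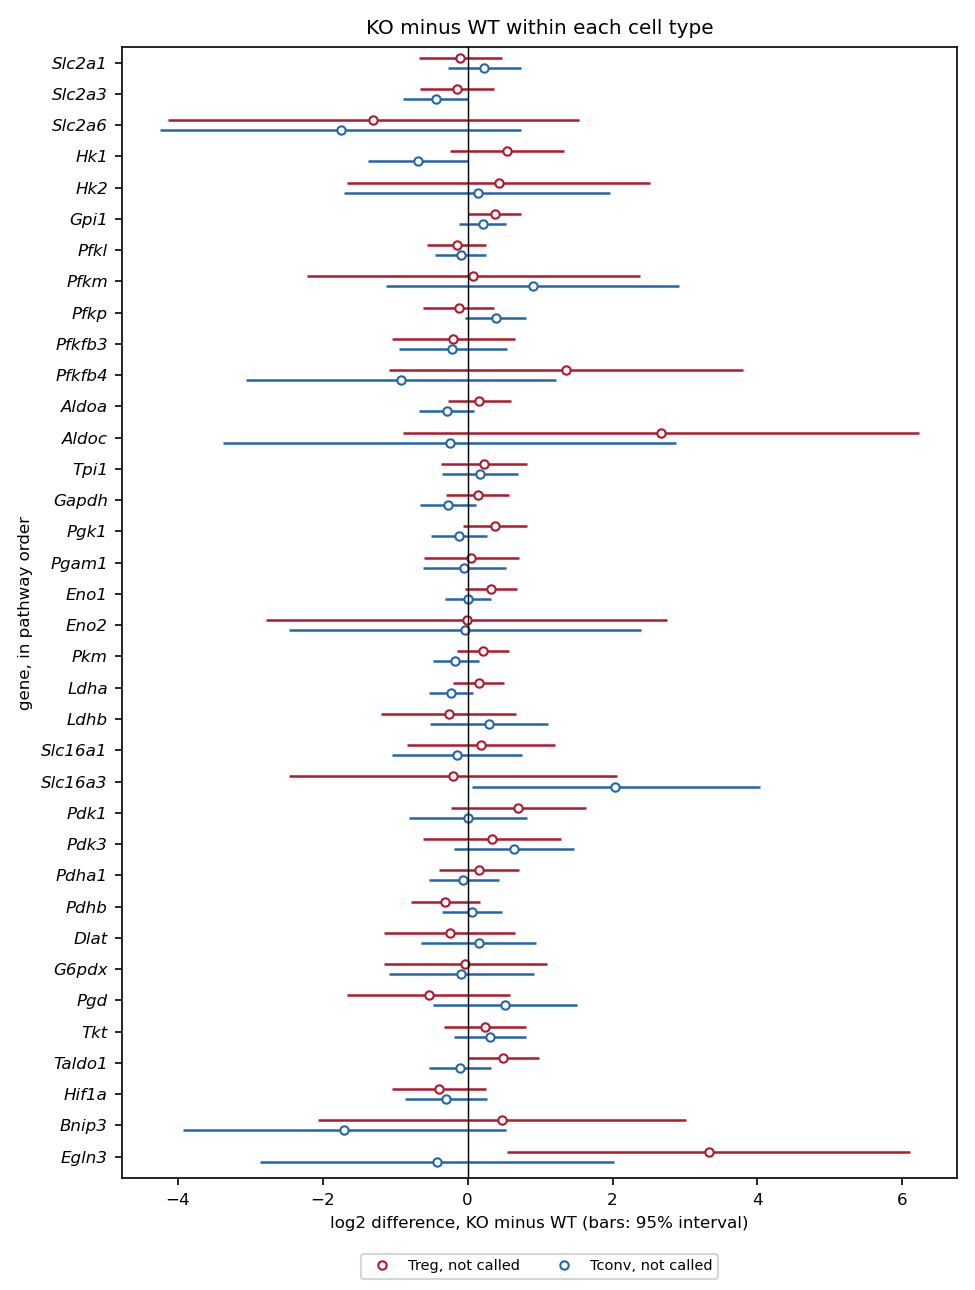
Log2 difference of KO minus WT for the 36 members tested, within Treg (upper of each pair) and within Tconv (lower), with 95% intervals from limma. No point is filled because no member passed, and the intervals are narrow for abundant enzymes such as Aldoa and Pkm and wide for low genes such as Aldoc and Eno2.

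Of 62 further genes of glucose metabolism and the hypoxia pathway, 61 were in the table and 50 were tested. Adpgk, the ADP-dependent glucokinase, was the single gene of these called in any comparison. That is 1 of 50 in Treg KO against Tconv KO, beside 6.81% of all genes tested. Its call was not followed under the alternative settings. Adpgk averaged 801 ± 121 in Treg KO and 814 ± 127 in Treg WT, against 343 ± 162 in Tconv KO and 401 ± 195 in Tconv WT. The log2 difference was 1.31 ± 0.35 in KO (SE, adjusted p = 0.0266) and 1.18 ± 0.40 in WT (adjusted p = 0.114). The ranges did not overlap in either genotype, with 648 to 901 in Treg KO and 209 to 625 in Tconv KO, and 708 to 955 in Treg WT and 146 to 616 in Tconv WT. Of all genes tested, 10.7% did not overlap in KO and 12.0% in WT. Medians over the 50 genes were 0.12 in KO and 0.08 in WT.

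Some other marker levels moved with the cell types. The sum of 9 proliferation genes was 2219 to 2814 in Treg KO and 2282 to 2903 in Treg WT, against 3106 to 3760.2 in Tconv KO and 2747 to 4041 in Tconv WT, so the KO groups did not overlap. The sum of 9 adipocyte and stromal markers was 241 to 518 in Treg KO and 194 to 356 in Treg WT, against 468 to 1185 in Tconv KO and 319.7 to 681 in Tconv WT. Their part in the Treg to Tconv differences of the members was not tested.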

How the data were processed

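RNA from sorted VAT Treg and Tconv (16 libraries) was sequenced after SMART-seq2 preparation from 10 ng, which does not mark strand, per the labels' protocols. Named in the submitters' processing notes, without roles, are kallisto 0.44, DESeq2, Partek 6.6, CASAVA 1.8, R 3.3.1 and the mm10 build. The deposited values are a signal that is never negative, gene reads divided by a size factor plus 1, as the steps show: 100% of values under 1000 reads lay within 0.1 of a whole read, at most 0.00477 away. Read totals and the value of 3 reads follow from these steps. Such floors cover counting error only. How counting treated strand and copies is not given in the sources used here.

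Values were taken as log2(value + 1), so fold changes of low genes are understated, and the filter required 10 or more in at least 3 libraries (14319 genes). A single limma 3.58.1 model with a mean-variance trend (R 4.3.3) over the 4 groups gave all 5 comparisons, with Benjamini-Hochberg adjustment over all genes of each. Samples were grouped by title. Count tests planned as alternatives to this model were not run because the values start at 1. Voom on the recovered reads, scaled by read totals of the genes tested, was run in their place. Levels per kilobase use the principal transcript of GENCODE M21, and 31-base overlaps its transcripts. Values of every library are given for members that passed and, for each step without such a member, the member with the highest mean. Egln3 and Hk2 were added after their values were seen, as were the Il5 and Pparg levels. The members and lists were chosen with earlier results of these data known. Alternatives changed scaling, pseudocount, filter, libraries fitted, weights, block and each library left out. Whether replicate numbers pair libraries is not known, and the fit reported holds no block.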

Additional observations from a re-analysis of the deposited data

Results flagged for a closer look

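In 15 of 110 member and group combinations with 4 or 5 libraries, 1 library lay far from the rest by Dixon's criterion on log2 values. Chance flags about 1 in 20 where values are normally distributed. Where the rest of a group is unread, any value meets the criterion, so the count cannot be set against that rate. Several are low genes read in few libraries. Slc2a6 stood at 74.9 in Treg KO 4 and was unread in the other Treg KO libraries. Hk3 stood at 67.2 in Tconv KO 4 and at 2.03 (1 read, below the value of 3 reads) in Tconv WT 1, and was unread in the rest of those groups. Aldoc was unread (1.00) in Treg KO 2, Eno2 (1.00) in Treg KO 4, Pfkm (1.00) in Tconv WT 2 and Bnip3 (1.00) in Tconv WT 4, where the other libraries of the group ran from 86.6 to 148, 27.1 to 43.2, 42.7 to 57.9 and 45.7 to 67.2.

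Among better read genes, Hk2 stood at 520.4 in Tconv KO 3 (others 86.3 to 114) and Slc16a3 at 5.94 in the same library (others 40.0 to 50.9). Egln3 stood at 6.33 in Tconv KO 5 (95.9 to 128), Pfkp at 1443 in Tconv WT 1 (1744 to 1749) and Pgd at 60.7 in Tconv WT 4 (352 to 490.2). Within Treg KO, Pgd stood at 249 in Treg KO 1 (456 to 497), Pdha1 at 722 in Treg KO 3 (874 to 895) and Tkt at 1288 in Treg KO 4 (1023 to 1061).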

How the results depend on the processing

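Of the results for single members, no direction of a called difference reversed under any alternative. The count of members passing in Treg KO against Tconv KO (4 of 36) was 7 when only the groups compared were fitted, 8 with array weights, and 2 to 7 with each library left out (2 on leaving out Treg KO 3 or Treg KO 4, and 7 on leaving out Treg KO 2). The counts over all genes there, 975 in the fit reported, were 1173 with only the groups compared, 1443 with array weights, 651 without Treg KO 3, 690 without Treg KO 4 and 965 without Treg KO 2. In Treg WT against Tconv WT the count of members (3 of 36) was 0 with only the groups compared. It was 1 (Eno1) by voom on the recovered reads, a test chosen after seeing the data. It was also 1 when Tconv KO 3 was left out along with both Tconv WT 1 and Tconv WT 3. With each library left out it was 1 or 2 (1 on leaving out Tconv WT 2, Tconv WT 3, Treg WT 2 or the library labelled Treg WT 3). The 3 counts for the deletion stayed at 0 under every alternative run. Over all genes, the 3 genes called in Treg KO against Treg WT became 0 to 17 (17 on leaving out Treg WT 1), the 0 for the difference of the deletion effects became 0 to 2, and the 599 in Treg WT against Tconv WT became 341 with only the groups compared, 290 by voom and 338 without the library labelled Treg WT 3. Voom, with its scaling by read totals, moved the median of all genes by -0.15 in KO and -0.11 in WT. The signs of 5 and 2 of 36 members changed with it, none of a called member. For Treg KO against Tconv KO, 61.0% of called genes were higher, and 53.7% with quantile scaling and 53.1% by voom.

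With the replicate number as a block, 2 members passed in Treg KO against Tconv KO, with Pfkp at an adjusted p of 0.0616 and Pkm at 0.0819. In Treg WT against Tconv WT Slc2a3 then stood at 0.0630 and Slc2a1 passed at 0.0328. Same-numbered libraries correlated at r of -0.04 to 0.08 over 21 pairs and none was above 0.1. Most of these pairs cross genotypes and cannot come from the same animal. Between Treg and Tconv of a genotype r was 0.02 to 0.05 in KO and 0.02 to 0.08 in WT. Differently numbered libraries were not set beside them, so these values cannot show whether the numbers pair libraries. The planned tests with edgeR and DESeq2 were not run on the deposited values, which are not counts, and voom on the recovered reads was run in their place. Total depth did not order the reads of every low member. Tconv KO 3, the deepest library, had 0 reads of Slc2a6, Hk3, Aldoc and Bnip3, which other libraries read up to 76, 83, 139 and 162 times. Of the other members with a mean under 100, Pfkfb4 had its highest count there (346 reads), Pfkm had 93 and Eno2 had 3.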
